A study of Mus musculus with 16 samples.

Results

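Genes of sterol and fatty acid synthesis and of cholesterol efflux were examined in whole left lungs from 16 mice of the Balb/c line, a strain often chosen for models of allergic asthma. The genes were chosen by name, with earlier results of these data known, so no test of the set was run. Of 37 names, 36 had a probe set that the annotation of the Affymetrix Mouse Genome 430 2.0 array assigns to a single gene, out of 18193 genes measured in this way, and Nr1h2 was not analysed here. Where a gene had several probe sets, the one whose mean over the 16 arrays was highest was used. The 36 genes comprised 17 enzymes of sterol synthesis, 6 genes of sterol sensing and transport, 8 enzymes of fatty acid synthesis and 5 genes of the liver X receptor (LXR) response.

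The mice were 23 weeks old and formed 4 groups of 4, with 1 lung on each array. Air females and air males had mothers that breathed filtered air, and SHS females and SHS males were exposed in utero to sidestream smoke, which stood in for second-hand smoke (SHS), at a particle level of 10 mg/m3, given 5 h per day, 7 days per week. All 16 mice, the air groups included, were sensitized with ovalbumin (OVA), an egg allergen, with injections in weeks 19 and 21, and OVA was then given as an aerosol during weeks 22 and 23. Each difference between SHS and air was thus measured in allergen-challenged lungs, and the labels name neither mothers nor litters. In whole lung, fewer cells of a type and less RNA per cell cannot be told apart.

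Cholesterol is built from acetyl units through mevalonate and squalene. The enzymes of this route are switched on by the transcription factor SREBP2, which waits in the endoplasmic reticulum until sterol falls and usually acts together with the CCAAT-binding factor NF-Y, while SREBP1 acts mainly on genes of fatty acid synthesis. LXR does the reverse job: it binds oxysterols, which build up when cholesterol is plentiful, and turns on exporters such as ABCA1 and ABCG1. In the lung, alveolar type 2 cells make the lipid of surfactant, and alveolar macrophages take up spent surfactant and export its cholesterol.

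Values are log2 intensities, one per probe set and array. Array medians lay between 6.996 and 7.043. Correlations between arrays were 0.990 to 0.998 within a sex and 0.959 to 0.974 across the sexes, and SHS was compared with air only within a sex. The lung surfactant gene Sftpc had a mean of 15.09 in air females and 15.09 in air males, near the highest value on the arrays, 15.22. The SHS arrays numbered 4 stood apart from the other SHS arrays. Relative to air, their medians over 14 cell division markers were 0.55 in the female and 0.61 in the male, against 1.11 to 1.40 and 1.06 to 1.13 on the other 3 arrays. Their eosinophil marker medians were -0.93 and -0.74, against 0.58 to 1.08 and 0.14 to 0.53.

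**Figure D1:**
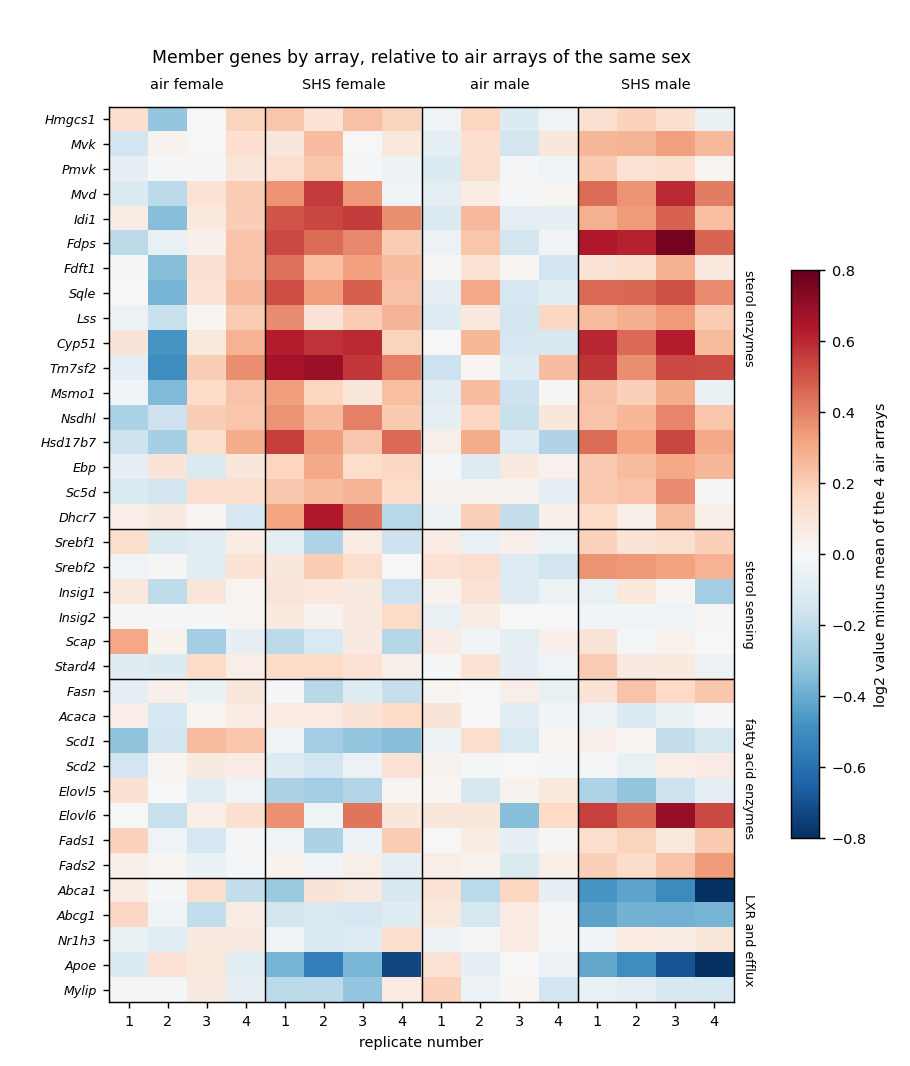
Each row is 1 of the 36 genes and each column 1 array; colour gives the log2 value minus the mean of the 4 air arrays of the same sex, red for higher and blue for lower. The sterol enzymes are mostly red on the SHS arrays of both sexes, and Apoe is blue on all 8 SHS arrays.

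In lungs of mice exposed to SHS in utero, the enzymes of sterol synthesis lay above air in both sexes. In females 3 of the 17 rose at an adjusted p under 0.05, and in males 6 of 17 rose, while none fell in either sex. Over all genes, 3.29% rose in females and 4.17% in males, and over all 45037 probe sets 2.87% and 5.18% changed in either direction. The log2 difference was above 0 for 17 of 17 enzymes in females, from 0.08 to 0.58, and for 17 of 17 in males, from 0.10 to 0.62. The median difference was 0.30 in females and 0.28 in males, against 0.0003 and 0.0084 over all genes. The count of 17 above 0 also held after quantile normalization and after centring of array medians. When each gene was read as the mean of all its probe sets, it was 17 in females and 16 in males, the female median went from 0.30 to 0.20, and the averaged comparison described next called 9 of 17 in place of 13.

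All 4 SHS arrays lay above the air mean for 14 of the 17 sterol enzymes in females and 15 of 17 in males. The share of all genes that meet this looser mark was not computed. The groups did not overlap for 5 of 17 in females and 9 of 17 in males, with SHS higher each time, where 7.74% and 10.5% of all genes were separated in that direction. A further comparison, chosen after the values had been seen, averaged the differences of both sexes in the same fit. In it 13 of 17 sterol enzymes rose, beside 9.2% of all genes, and none fell, beside 4.32%. The 4 that did not pass were Hmgcs1, Pmvk, Msmo1 and Dhcr7, with averaged differences of 0.14, 0.10, 0.19 and 0.21.

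The first committed steps lead to mevalonate and its phosphates. Hmgcs1, which makes hydroxymethylglutaryl-CoA (chromosome 13, 119690351 to 119708260, GRCm38.p6), was not called in either sex. Its values were 11.45, 11.01, 11.31 and 11.49 on air female arrays and 11.54, 11.42, 11.55 and 11.49 on SHS female arrays, which overlap. The difference was 0.18 ± 0.10 in females (SE, n = 4 and 4, adjusted p = 0.36 in limma) and 0.10 ± 0.10 in males (adjusted p = 0.633). Mvk, the mevalonate kinase, rose in males by 0.28 ± 0.08 (adjusted p = 0.0461), from 7.75, 7.97, 7.69 and 7.92 to 8.10, 8.10, 8.16 and 8.09. In females its difference was 0.11 (adjusted p = 0.563). The second probe set of Mvk was at 0.115 in females and 0.17 in males (adjusted p = 0.605 and 0.336), and its male groups overlapped. Pmvk, the next kinase, was at 0.08 and 0.12 in females and males, with adjusted p of 0.694 and 0.403.

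Mvd, the decarboxylase that yields isopentenyl diphosphate (chromosome 8, 122433596 to 122443422), rose in males. Air males read 7.64, 7.78, 7.71 and 7.74 and SHS males 8.16, 8.08, 8.32 and 8.13. All SHS males lay above all air males, a 1.37-fold difference of 0.45 ± 0.11 (adjusted p = 0.0226 in limma). In females the difference was 0.31 ± 0.11 (adjusted p = 0.15), and the SHS female array numbered 4, at 7.79, lay inside the air range of 7.60 to 8.02. The second probe set of Mvd was at 0.29 in females and 0.16 in males (adjusted p = 0.127 and 0.371), and its male groups overlapped.

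Idi1, the isomerase that makes the second building block of isoprenoids (chromosome 13, 8885606 to 8892396), rose in females. Air females read 10.27, 9.87, 10.29 and 10.41, and SHS females 10.71, 10.74, 10.77 and 10.58. The groups did not overlap, and the difference was 1.41-fold, 0.49 ± 0.11 (adjusted p = 0.0161 in limma). In males, air arrays read 10.66, 11.04, 10.71 and 10.71 and SHS arrays 11.07, 11.12, 11.25 and 11.02. There the air array numbered 2 overlapped with the SHS arrays, and the difference of 0.34 ± 0.11 did not pass the test (adjusted p = 0.0769). The other probe set of Idi1 was called in both sexes, at 0.52 in females (adjusted p = 0.0277) and 0.56 in males (adjusted p = 0.0134).

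Fdps, farnesyl diphosphate synthase, which joins these units (chromosome 3, 89093588 to 89101967), rose in both sexes. Air males read 9.48, 9.75, 9.38 and 9.50, and SHS males 10.17, 10.15, 10.29 and 9.99, with no overlap. The male difference of 0.62 ± 0.10 was 1.54-fold (adjusted p = 0.00216 in limma), the largest among the sterol enzymes in that sex. Air females read 10.34, 10.49, 10.60 and 10.78 and SHS females 11.08, 11.0001, 10.94 and 10.75. Only the array numbered 4 of SHS females fell inside the air range, and the difference was 0.39 ± 0.10 (adjusted p = 0.0487). In settings other than single arrays left out, this female call held in 4 of 9, with a highest adjusted p of 0.568. The other probe set of Fdps had a low mean, 3.47 in air females. It was at -0.22 in females, lower after SHS with no overlap, and 0.08 in males (adjusted p = 0.282 and 0.727). Fdft1, squalene synthase, which commits farnesyl diphosphate to sterols, was at 0.31 (adjusted p = 0.115) in females and 0.15 (adjusted p = 0.436) in males.

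From squalene onward the enzymes lie in the endoplasmic reticulum. Sqle, the epoxidase that adds the first oxygen (chromosome 15, 59315092 to 59331193), rose in males from 9.53, 9.91, 9.47 and 9.51 to 10.06, 10.06, 10.12 and 9.98. All SHS males were above all air males, by 0.45 ± 0.12 (adjusted p = 0.0356 in limma). In females Sqle was at 0.39 ± 0.12 (adjusted p = 0.0881), with the air array numbered 4 (10.04) inside the SHS range of 10.01 to 10.30. Lss, which folds epoxysqualene into lanosterol, was at 0.24 and 0.27 in females and males (adjusted p = 0.173 and 0.0871).

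Cyp51, the demethylase of lanosterol, had differences of 0.50 ± 0.14 in females and 0.49 ± 0.14 in males that did not pass the test (adjusted p = 0.0763 and 0.0598 in limma). It passed when averaged over the sexes, at 0.49 ± 0.10 (adjusted p = 0.00464). Its values were 8.54, 7.96, 8.52 and 8.71 on air female arrays and 9.06, 9.01, 9.03 and 8.61 on SHS female arrays. Again the SHS array numbered 4 was the lowest of its group and the only one that overlapped with air. A second probe set of Cyp51 was called in males, at 0.54 (adjusted p = 0.0318), and not in females, at 0.47 (adjusted p = 0.083). The third was not called in either sex.

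Tm7sf2, a sterol reductase that acts next (chromosome 19, 6062821 to 6067850), rose in both sexes. Air females read 7.84, 7.42, 8.11 and 8.29, with a wide spread, and SHS females 8.57, 8.60, 8.48 and 8.32. Air males read 7.78, 7.96, 7.85 and 8.19, and SHS males 8.52, 8.32, 8.47 and 8.47. Neither sex overlapped, and the differences were 1.49-fold and 1.41-fold (0.58 ± 0.14 and 0.50 ± 0.14, adjusted p = 0.0322 and 0.0483 in limma). The female difference was the largest of the 36 genes in that sex.

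Of the later enzymes, which remove methyl groups and move double bonds, Ebp rose in males. Ebp, an isomerase on the X chromosome, went from 10.10, 10.01, 10.19 and 10.15 in air males to 10.32, 10.36, 10.42 and 10.38 in SHS males, by 0.26 ± 0.07 (adjusted p = 0.0364 in limma). Its female difference was 0.19 (adjusted p = 0.149), also with no overlap. Msmo1, Nsdhl and Hsd17b7, which act together on the methyl groups, were at 0.21, 0.30 and 0.39 in females and 0.17, 0.28 and 0.40 in males. Sc5d, a desaturase, was at 0.22 and 0.21, and Dhcr7, the reductase that completes cholesterol, at 0.29 and 0.12. None of these 5 passed in either sex with the probe set used. Nsdhl, Hsd17b7 and Sc5d passed when averaged over the sexes (adjusted p = 0.0173, 0.00779 and 0.0283). A further probe set of Hsd17b7 was called in males, at 0.57 (adjusted p = 0.017), and not in females, at 0.44 (adjusted p = 0.0771). No other probe set of Hsd17b7 was called in either sex.

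The single-sex counts changed when single arrays were left out or other settings were used. How the share of all genes called changed with them was not computed. The 3 female calls became 0 without air female replicate 2 or without SHS female replicate 1, 2 or 3, became 1 without air female replicate 1, and became 7 without SHS female replicate 4. With quantile normalization 1 was called in females and with the 8 female arrays alone 0. The 6 male calls became 1 without air male replicate 1 or 3 or SHS male replicate 1 or 3, and 2 without SHS male replicate 2. Without both SHS arrays numbered 4, also chosen after the values had been seen, 7 were called in females and 4 in males. The averaged comparison called 10 to 14 of 17 with 1 array left out. Fdps in males was called in 16 of 16 fits that left out 1 array, and in females in 4 of 16, with a highest adjusted p of 0.153 without SHS female replicate 1. Idi1 in females was called in 12 of 16 (0.0554 without SHS female replicate 3), Tm7sf2 in 11 of 16 in females and 5 of 16 in males (0.0989 without SHS female replicate 1, 0.134 without air male replicate 1). In males Mvd was called in 12 of 16 (0.0825 without SHS male replicate 3), Sqle in 10 (0.107 without air male replicate 3), Ebp in 8 (0.109 without SHS male replicate 3) and Mvk in 7 (0.143 without air male replicate 3).

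Genes of cell division moved in the same samples. Of 14 such markers 13 rose in females and 13 in males, beside 3.29% and 4.17% of all genes, with medians of 1.12 and 0.97. Their array medians relative to air ran from -0.18 to 0.14 in air females and 0.55 to 1.40 in SHS females, and from -0.13 to 0.10 and 0.61 to 1.13 in males. Their part in the sterol enzyme result was not tested.

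**Figure D2:**
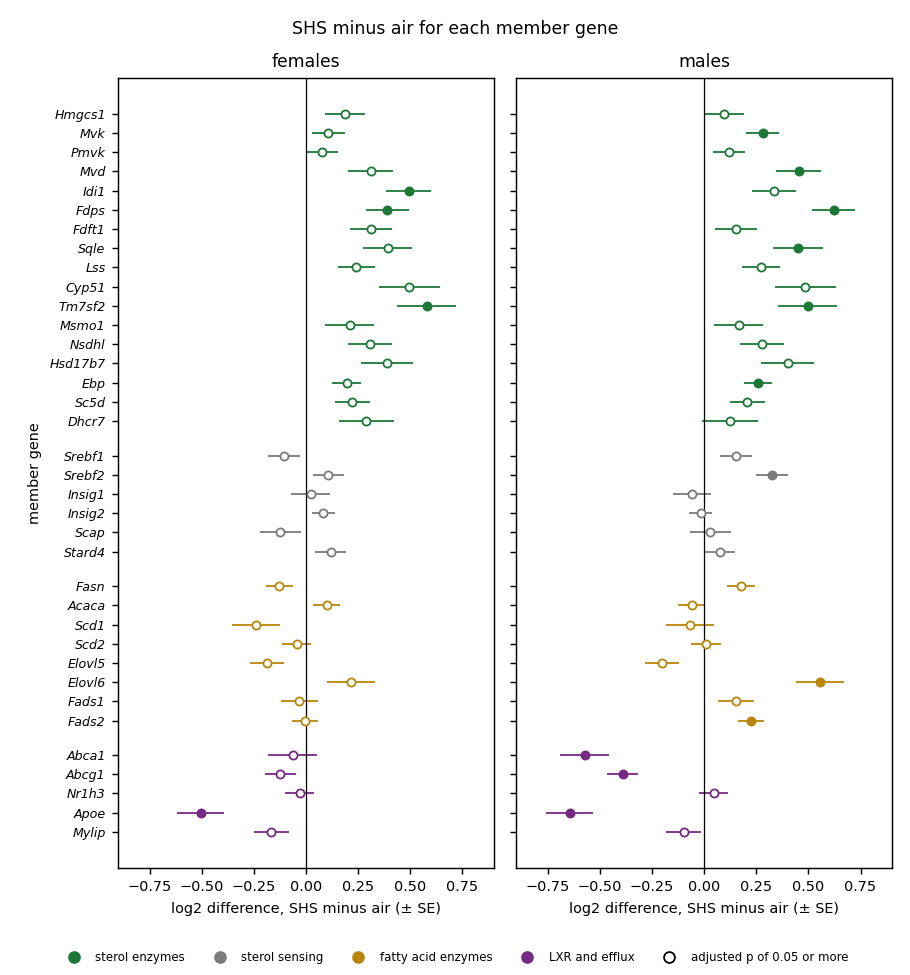
Points give the log2 difference between SHS and air for each gene with its standard error, females on the left and males on the right, and filled points passed an adjusted p of 0.05. The 17 sterol enzymes lie to the right of 0 in both sexes, and the filled points of the LXR group (1 in females, 3 in males) lie to the left.

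The start regions of these enzymes can be read from RefSeq (build GRCm38.p6), from 250 bases before to 50 after each annotated start. Of the 17 sterol enzymes 14 had an entry, with Fdps, Fdft1 and Sqle missing. The letters CCAAT, the core of the NF-Y site, were searched on both strands (ATTGG on the other) and stood in at least 1 region of 14 of 14. Of 27025 genes with a start region 41.06% held it, and among the 14452 measured on the arrays 42.0%. In the members of fatty acid synthesis it was 2 of 5, in sterol sensing 4 of 5 and in the LXR group 1 of 4. Pmvk and Dhcr7 have several annotated starts, and the letters stood before 1 of them in each.

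The 200 bases before the start are shown for 3 sterol enzymes, Hmgcs1 as the entry step and Idi1 and Tm7sf2 as called genes, 5′ to 3′ on the strand of the gene. They span chr13:119690151-119690350, chr13:8885406-8885605 and, on the minus strand, chr19:6067851-6068050. Capitals mark CCAAT on either strand and, in Hmgcs1 at position -137, the letters TCACNCCA of a sterol regulatory element.
Hmgcs1: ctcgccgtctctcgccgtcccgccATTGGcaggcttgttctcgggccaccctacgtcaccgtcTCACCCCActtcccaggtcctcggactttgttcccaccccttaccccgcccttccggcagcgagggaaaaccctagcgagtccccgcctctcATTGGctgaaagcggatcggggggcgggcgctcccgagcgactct
Idi1: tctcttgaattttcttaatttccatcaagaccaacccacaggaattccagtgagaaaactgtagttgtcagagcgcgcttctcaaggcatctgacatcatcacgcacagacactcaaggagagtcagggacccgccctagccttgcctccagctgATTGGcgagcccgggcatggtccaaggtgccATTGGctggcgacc
Tm7sf2: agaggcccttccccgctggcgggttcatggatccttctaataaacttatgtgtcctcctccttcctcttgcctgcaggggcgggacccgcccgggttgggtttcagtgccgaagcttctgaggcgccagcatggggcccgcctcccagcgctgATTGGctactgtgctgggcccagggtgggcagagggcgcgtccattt

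In each of these 3 regions a CCAAT match lies close to the start, at positions -45, -45 and -47. TCACNCCA, the core letters at which SREBP binds, was searched on both strands and its last letters can also begin a CCAAT match. It was found in 2 of 14 sterol enzymes, in Srebf2 and in Apoe, against 4.97% of all genes. Apoe has 3 annotated starts, and the match stood before 1 of them, inside the span of the gene (19696244 to 19701310). These 4 matches are shown with 6 bases on each side, matched letters in capitals, at chr13:119690208-119690227, chr8:64733742-64733761, chr15:82147101-82147120 and chr7:19699388-19699407. A match is a run of letters and was not tested as a binding site.
Hmgcs1: accgtcTCACCCCActtccc
Msmo1: ctattcTCACTCCAtccgcg
Srebf2: gcaccaTCACCCCAtgagcc
Apoe: cgatctTCACCCCAgaagct

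**Figure D3:**
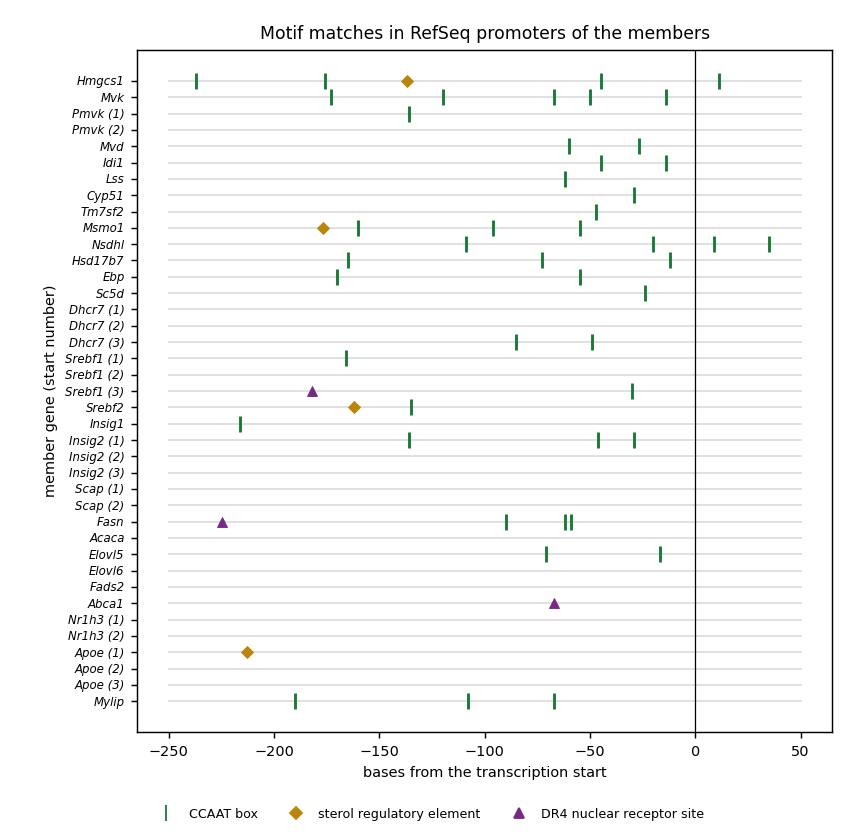
Each grey line is 1 annotated start region of a member gene, from 250 bases before to 50 after the start at 0, and marks give the left end of each motif match on either strand. The sterol enzymes at the top each carry a CCAAT mark at 1 start or more, and the DR4 marks are in Srebf1, Fasn and Abca1.

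Among the genes that sense sterol, Srebf2 rose in males. Srebf2 encodes SREBP2 (chromosome 15, 82147269 to 82205379). Air males read 8.99, 9.02, 8.77 and 8.73 and SHS males 9.24, 9.22, 9.20 and 9.16, with no overlap and a difference of 0.33 ± 0.08 (adjusted p = 0.0182 in limma). In females it was at 0.11 ± 0.08 (adjusted p = 0.539), and the difference between the sexes did not pass (adjusted p = 0.615). Its other probe set was at 0.11 in males (adjusted p = 0.559), and the male call was lost without air male replicate 3 or 4 or SHS male replicate 1, 2 or 3, with the highest adjusted p, 0.0661, without air male replicate 3. Srebf1, which encodes SREBP1, was at -0.11 in females and 0.15 in males (adjusted p = 0.554 and 0.277).

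The other 4 sensing genes were not called in either sex. Insig1, which retains SREBP and is itself an SREBP target, was at 0.02 ± 0.09 in females and -0.06 ± 0.09 in males. Insig1 values were 8.76, 8.47, 8.77 and 8.70 in air females and 8.77, 8.76, 8.74 and 8.51 in SHS females, so the groups overlapped. Its close relative Insig2 was at 0.08 and -0.02, Scap, the escort of SREBP, at -0.12 and 0.03, and Stard4, a carrier of cholesterol, at 0.12 and 0.08. The 6 genes had medians of 0.05 and 0.05.

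Of the 8 fatty acid enzymes, none was called in females and 2 rose in males, beside 3.29% and 4.17% of all genes higher. The groups did not overlap, with SHS higher, for 0 of 8 in females and 4 of 8 in males. Over all genes these shares were 7.74% and 10.5%. The medians were -0.04 in females and 0.08 in males (0.14 when each gene was read as the mean of its probe sets), beside 0.30 and 0.28 for the sterol enzymes. Elovl6, which lengthens saturated fatty acids (chromosome 3, 129532386 to 129638495), rose in males from 7.66, 7.66, 7.23 and 7.73 to 8.12, 8.02, 8.27 and 8.10. No SHS male overlapped with air, and the difference was 1.47-fold, 0.56 ± 0.12 (adjusted p = 0.00976 in limma). Its second probe set rose too, at 0.46 (adjusted p = 0.0418). In females it was at 0.22 ± 0.12 (adjusted p = 0.381), and the difference between the sexes did not pass (adjusted p = 0.614).

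Fads2, a desaturase of polyunsaturated fatty acids, rose in males by 0.23 ± 0.06 (adjusted p = 0.0484 in limma), from 8.998, 8.98, 8.84 and 8.997 to 9.15, 9.10, 9.18 and 9.29. The male call of Fads2 held in 3 of 16 fits that left out 1 array, and its adjusted p reached 0.148 without air male replicate 3. In females it was at -0.01 (adjusted p = 0.981). Its partner Fads1 was at -0.03 and 0.15 (adjusted p = 0.908 and 0.347).

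Fasn, the fatty acid synthase itself (chromosome 11, 120805958 to 120825166), was not called in either sex. Females went from 11.43, 11.55, 11.46 and 11.59 in air to 11.50, 11.28, 11.41 and 11.32 after SHS, and males from 10.84, 10.82, 10.87 and 10.76 to 10.93, 11.05, 10.98 and 11.04. The differences of -0.13 ± 0.07 and 0.18 ± 0.07 had opposite signs (adjusted p = 0.353 and 0.131), and the difference between them did not pass (adjusted p = 0.449). Acaca, which makes the malonyl units, was at 0.10 and -0.06. The stearoyl desaturases Scd1 and Scd2 were at -0.24 and -0.05 in females and -0.07 and 0.01 in males. The second probe set of Scd1 was at -0.22 in females and 0.37 in males (adjusted p = 0.524 and 0.17 in limma). Its male groups did not overlap, with SHS higher. Elovl5, the elongase of polyunsaturated fatty acids, was at -0.19 and -0.20 and passed only when averaged over the sexes (adjusted p = 0.0361).

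Adipocytes also express these enzymes, and their markers varied widely between arrays. Adipoq, the adipocyte hormone adiponectin, read 4.74, 6.98, 7.25 and 7.52 in air females and 7.51, 5.79, 8.71 and 5.60 in SHS females. Air males read 5.72, 7.07, 5.76 and 4.96, and SHS males 6.86, 6.68, 6.95 and 7.27. Over all genes 3.29% rose in females and 4.17% in males, and none of 9 adipocyte markers was called in either sex. Relative to air, their array medians ran from -0.23 to 0.33 in air females, -0.35 to 0.22 in SHS females, -0.07 to 0.07 in air males and 0.15 to 0.44 in SHS males, so that the male groups did not overlap. Their part in the male results for Elovl6 and Fads2 was not tested.

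Among the LXR and efflux genes, those that were called were lower after SHS. In females 1 of 5 fell and in males 3 of 5, none rose, and the medians were -0.12 and -0.39. Over all genes 0.676% fell in females and 2.47% in males. Apoe, the apolipoprotein that accepts exported cholesterol (chromosome 7, 19696244 to 19701310), fell in both sexes. Air females read 12.52, 12.74, 12.71 and 12.53 and SHS females 12.25, 12.07, 12.26 and 11.90. Air males read 11.88, 11.70, 11.77 and 11.72 and SHS males 11.36, 11.27, 11.08 and 10.78. All SHS arrays lay below all air arrays in both sexes, and in both the SHS array numbered 4 was the lowest.

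Apoe after SHS was 0.705 times the air level in females and 0.64 times in males, log2 differences of -0.51 ± 0.11 and -0.64 ± 0.11 (adjusted p = 0.018 and 0.00287 in limma). The male call held in 16 of 16 fits that left out 1 array and the female call in 13 of 16; it was lost without air female replicate 2 or 3 or SHS female replicate 2, with the highest adjusted p, 0.0672, without air female replicate 2. Without both SHS arrays numbered 4, Apoe remained called in females and 3 of 5 genes in males. Groups that did not overlap with SHS lower made up 2.65% of all genes in females and 8.53% in males, and 1 of 5 and 3 of 5 LXR and efflux genes.

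Abca1, which loads cholesterol onto lipid-poor apolipoproteins (chromosome 4, 53030789 to 53159988), fell in males. Air males read 12.04, 11.71, 12.10 and 11.86 and SHS males 11.46, 11.51, 11.42 and 11.04, with no overlap. The difference was -0.57 ± 0.12, or 0.673 times (adjusted p = 0.00872 in limma). Its other 2 probe sets were at -0.27 and -0.19 (adjusted p = 0.47 and 0.704), and with the mean of the 3 the male call was lost (adjusted p = 0.219). In air males these other 2 had means of 6.35 and 4.82, below the median of all probe set means, 7.02. In females Abca1 was at -0.06 ± 0.12 (adjusted p = 0.857), with SHS arrays at 10.99, 11.39, 11.36 and 11.16 around air arrays of 11.35, 11.28, 11.43 and 11.10.

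Abcg1, which exports cholesterol to lipoprotein particles and is active in alveolar macrophages (chromosome 17, 31057694 to 31117984), fell in males. Air males read 11.46, 11.23, 11.43 and 11.36, and SHS males lay close together at 10.94, 10.99, 10.99 and 10.998. The difference was -0.39 ± 0.07 (adjusted p = 0.00545 in limma), and the second probe set fell too, at -0.45 (adjusted p = 0.033). In females Abcg1 was at -0.12 ± 0.07 (adjusted p = 0.449). The male calls of Abca1 and Abcg1 held in 16 of 16 fits that left out 1 array. Between the sexes the effects on Abca1 and Abcg1 differed by 0.51 and 0.27, neither past the test (adjusted p = 0.471 and 0.548).

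Nr1h3, the gene of the receptor LXR alpha, was at -0.03 and 0.05 in females and males (adjusted p = 0.889 and 0.767). Mylip, an LXR target that marks lipoprotein receptors for degradation, was at -0.17 and -0.10 (adjusted p = 0.344 and 0.566).

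**Figure D4:**
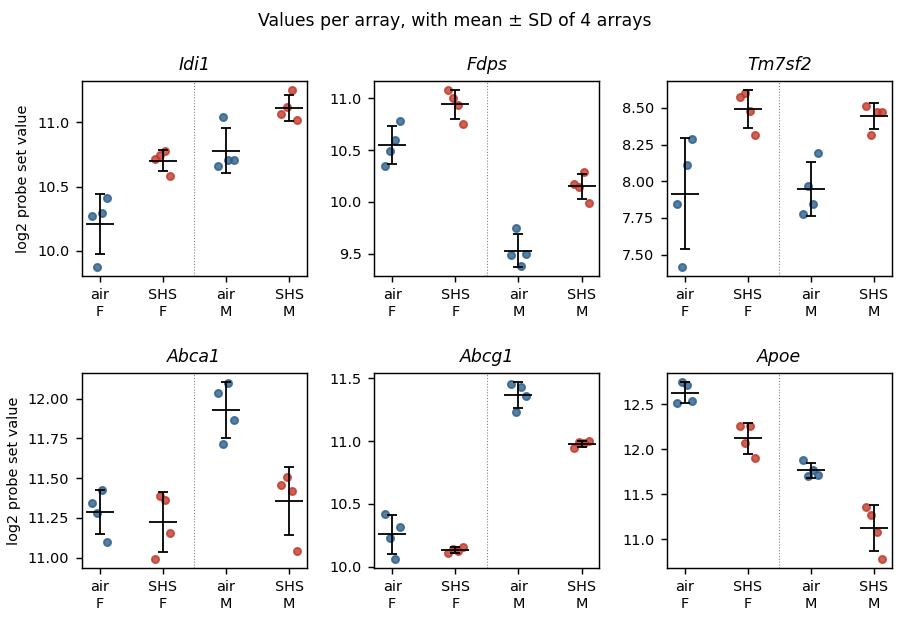
Points are single arrays, and bars give the mean and SD of 4 arrays on the log2 scale, for 3 sterol enzymes above and 3 efflux genes below; F is female and M male, blue air and red SHS. Apoe is lower after SHS in both sexes with no overlap, and Abca1 and Abcg1 are separated only in males.

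Alveolar macrophages and type 2 cells both handle surfactant cholesterol, and their markers were read on the same arrays. Of 9 alveolar macrophage markers 1 rose in each sex, the mannose receptor Mrc1, with array medians relative to air of 0.24 to 0.30 in SHS females and 0.05 to 0.23 in SHS males, against -0.20 to 0.15 and -0.08 to 0.03 in air. Of 7 markers of monocytes and macrophages none was called, with medians of 0.23 and 0.11. Of 10 alveolar type 2 markers none was called in females and 2 fell in males, the surfactant lipid transporter Abca3 (-0.23) and the transcription factor Etv5 (-0.41). Over all genes, 3.29% rose and 0.676% fell in females, and 4.17% and 2.47% in males. Array medians of the type 2 markers were -0.10 to -0.003 in SHS females and -0.18 to -0.08 in SHS males, against -0.13 to 0.07 and -0.01 to 0.01 in air. The alveolar macrophage medians lay above all air arrays on all 8 SHS arrays, but single markers did not all follow: Siglecf, also an eosinophil marker, was at -1.05 on SHS female array 4 and -1.23 on SHS male array 4. The medians of the broader monocyte and macrophage list were -0.07 and -0.09 on these 2 arrays, where Apoe was lowest, and 0.09 to 0.50 on the other 6. The part of these cell types in the Apoe, Abca1 and Abcg1 results was not tested.

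The letters GGTNA, any 5 letters and then GGTCA, the kind of repeat at which LXR binds (DR4), were searched on both strands. They stood in 1 of 4 LXR and efflux genes with an entry (Abcg1 has none), in 1 of 5 fatty acid enzymes, in 1 of 5 sensing genes and in 0 of 14 sterol enzymes, beside 0.23% of all genes. The 3 matches are in Abca1 at position -67, in Fasn at -225 and before the third annotated start of Srebf1 at -182. They lie at chr4:53159942-53159968, chr11:120824752-120824778 and chr11:60210633-60210659, and each reads on the strand opposite to its gene. They are shown on that strand with 6 bases on each side and the matched letters in capitals. The matched letters of Abca1 and Fasn are identical. Of the 3 genes, Abca1 fell in males and the others were not called.
Abca1: cgccggGGTTACTACCGGTCAaacgct
Fasn: aggcggGGTTACTACCGGTCAtcgtgg
Srebf1: cgctggGGTTACTGGCGGTCActgtcg

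The 200 bases before the start of Abca1, on the minus strand at chr4:53159896-53160095, hold the same DR4 letters, here on the strand of the gene and thus in reverse complement, and no CCAAT.
Abca1: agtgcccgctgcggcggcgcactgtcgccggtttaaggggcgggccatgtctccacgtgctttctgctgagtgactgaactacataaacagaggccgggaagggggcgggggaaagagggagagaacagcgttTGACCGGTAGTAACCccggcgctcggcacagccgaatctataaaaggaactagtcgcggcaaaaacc

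Synthesis and efflux were set against each other on each array. The median of the 17 sterol enzymes minus that of the 5 LXR and efflux genes, each relative to air of the same sex, was 0.00 ± 0.20 in air females (SD, n = 4) and 0.44 ± 0.11 in SHS females. In males it was -0.02 ± 0.20 and 0.67 ± 0.06. SHS females ran from 0.30 to 0.58 and air females from -0.19 to 0.27, so no array overlapped, with the closest pair at 0.27 and 0.30. SHS males ran from 0.61 to 0.76 and air males from -0.19 to 0.23. The sterol enzyme medians alone overlapped in females, with air female replicate 4 at 0.204 above SHS female replicate 4 at 0.200, and did not overlap in males, where the highest air array was at 0.16 and the lowest SHS array at 0.24. These are medians over genes picked by name, with earlier results of these data known, and carry no test. Over the 25 enzymes of sterol and fatty acid synthesis, the median difference was 0.22 in females and 0.23 in males, and 3 and 8 of 25 rose, beside 3.29% and 4.17% of all genes. With the mean of all probe sets per gene these medians were 0.12 and 0.18.

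**Figure D5:**
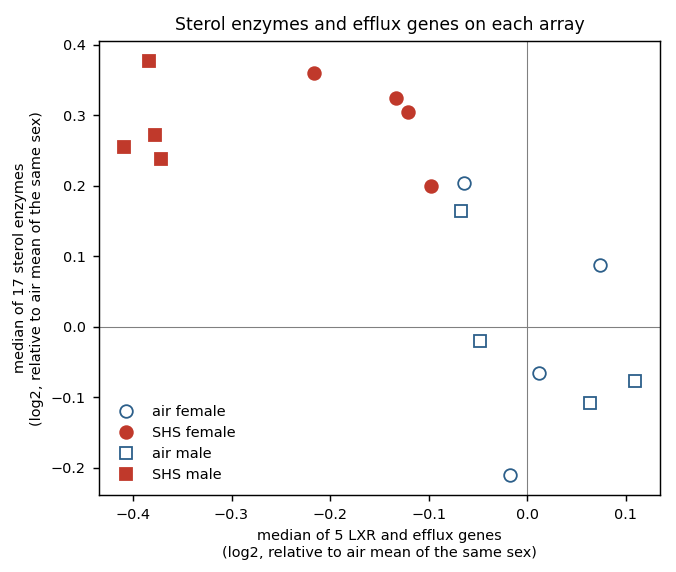
Each point is 1 array, placed by its median over 5 LXR and efflux genes (horizontal) and over 17 sterol enzymes (vertical), both on the log2 scale relative to the air mean of the same sex. SHS females lie at 0.20 to 0.36 and SHS males at 0.24 to 0.38 on the vertical axis, and 1 air female (0.20) and 1 air male (0.16) lie in the same upper left field.

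The response to SHS was also compared between the sexes. Levels of some probe sets differed widely between them, such as the second of Abca1, with means of 9.49 in air females and 6.35 in air males. The part of such level differences in this comparison was not tested. The difference of the SHS effects was called for 0 of 36 members and 0 of all 45037 probe sets in limma (0%), while 5 of 36 members and 3709 probe sets had an unadjusted p under 0.05. Those 5 were Fasn, Abca1, Fads2, Abcg1 and Srebf1. The other settings of the same model that were run also called 0 of 36. Of the 36 members 4 were called in females, beside 3.29% of all genes higher and 0.676% lower. In males 12 were called, beside 4.17% higher and 2.47% lower. Called in both sexes were 3 (Fdps, Tm7sf2 and Apoe), and 26 had the same sign in both. The shares of all genes called in both sexes or with the same sign were not computed.

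Neighbouring pathways were counted against the same shares of all genes, 3.29% higher and 0.676% lower in females and 4.17% and 2.47% in males. Of 22 further genes of lipid synthesis, 3 were higher and 2 lower when averaged over the sexes, beside 9.2% and 4.32% of all genes. None was called in females and 2 in males, which is near the single-sex shares. Me1, malic enzyme, which supplies reducing power for lipid synthesis, rose from 10.18, 10.55, 10.18 and 10.32 to 10.89, 10.87, 10.84 and 10.64 (0.50 ± 0.12, adjusted p = 0.0207 in limma). Elovl1, the elongase of very long chains, fell by 0.37 ± 0.07 (adjusted p = 0.00717). Their median was -0.01 in females and 0.01 in males. Of 18 further genes of efflux, storage and uptake, 3 were higher and 1 lower when averaged, beside the same 9.2% and 4.32%. In each single sex 1 rose, also near the single-sex shares of all genes. It was the transporter Abca7 (0.29 and 0.27, adjusted p = 0.0378 and 0.0375). With 1 array left out, Me1 was called in 11 of 16 fits (0.0703 without air male replicate 3), and Abca7 in 7 in females and 8 in males (0.127 without air female replicate 2, 0.119 without air male replicate 3).

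Of 7 oxysterol enzymes 2 rose in each sex, beside 3.29% and 4.17% of all genes. When averaged over the sexes 3 were higher and 2 lower, beside 9.2% and 4.32% of all genes. The list medians were -0.10 in females and 0.08 in males. Ch25h, which makes a hydroxylated cholesterol that holds back SREBP and can bind LXR, read 10.65, 10.84, 10.67 and 9.86 in SHS females against 8.94, 8.54, 8.60 and 8.96 in air. In SHS males it read 10.59, 10.54, 10.54 and 10.53 against 9.05, 9.38, 8.86 and 9.05, and the rise was 3.35-fold and 2.76-fold (adjusted p = 7.25e-05 and 0.000164 in limma). Cyp7b1, which breaks this oxysterol down, rose by 0.57 ± 0.12 and 0.79 ± 0.12 (adjusted p = 0.0117 and 0.000904). The female call of Cyp7b1 was lost without SHS female replicate 1 (adjusted p = 0.0518).

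Of 40 further probe sets of the 36 members, 33 had the same sign as the one used in females and 31 in males. Among the 25 of them with a mean above the median of all probe sets, 7.02, it was 21 in each sex. Of the 21 further probe sets of sterol enzymes, 1 was called in females and 4 in males, all higher. Over all probe sets 2.87% and 5.18% were called in either direction. The male calls were for Idi1, Cyp51, Hsd17b7 and Fdft1. The Fdft1 one (0.33, adjusted p = 0.0464 in limma) had a mean of 5.83 in air males, and its others, at 0.11 and -0.02, were not called. For Lss and Sc5d the second probe sets were at -0.01 in females and -0.22 and -0.20 in males, against 0.24 and 0.22 and 0.27 and 0.21 for the ones used, none of them called.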

How the data were processed

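Total RNA of 16 left lungs was labelled as biotinylated cRNA for Affymetrix Mouse Genome 430 2.0 arrays, per the labels' protocols. The authors deposited log2 values that were already normalized between arrays. The method is not stated, and limma stands, with no version, in the submitters' processing notes. The log2 scale was read from the values, 2.58 to 15.22.

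The 64 control probe sets among 45101 features were dropped. Group means of 4 groups were fitted with limma 3.58.1 in R 4.3.3 to all 45037 probe sets (12 residual and 5.56 prior degrees of freedom). Tests were two-sided, with Benjamini-Hochberg adjustment over all of them and calls under 0.05. The 34945 probe sets with 1 symbol gave 18193 genes. Members are named in full, other pathway genes where called (at most 6 per list). Members and lists were chosen with earlier results of these data known. The fit was tested on simulated data. The precision is limited by 4 arrays per group, and p-values measure the spread between these lungs. Promoters and positions are RefSeq's, GRCm38.p6. Figures were drawn with matplotlib 3.10.9.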

Additional observations from a re-analysis of the deposited data

Results flagged for a closer look

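Each member was checked in each of the 4 groups for an array whose gap to its nearest neighbour was large against the range of the 4 arrays (Dixon's test at 95%). This marked 9 of 144 groups of 4, where chance alone marks about 1 in 20. SHS female replicate 4 was marked 3 times, as the lowest of its group for Cyp51 (8.61, next 9.01) and Insig1 (8.51, next 8.74) and the highest for Elovl5 (12.57, next 12.32). Air male replicate 2 was the highest for Idi1 (11.04, next 10.71) and Sqle (9.91, next 9.53). Air male replicate 3 was the lowest for Elovl6 (7.23, next 7.66) and Fads2 (8.84, next 8.98). Air male replicate 4 was the lowest for Sc5d (9.30, next 9.41), and SHS male replicate 3 the highest for Mvk (8.16, next 8.10).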

How the results depend on the processing

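Members called were 4 in females, 12 in males, 0 for the difference between the sexes and 19 when averaged. Of all genes, 3.29% were higher and 0.676% lower in females, 4.17% and 2.47% in males, and 9.2% and 4.32% when averaged. In females the count became 2 with quantile normalization, 1 with the 8 female arrays alone, 8 with array weights and, in an alternative chosen after seeing the data, 9 without both SHS arrays numbered 4. With 1 array left out in turn it ran from 0 to 8 in females, 5 to 13 in males and 15 to 21 averaged, and stayed at 0 for the difference between the sexes. Without single arrays the efflux median ran from -0.14 to -0.070 in females and -0.44 to -0.36 in males, the sterol enzyme median from 0.24 to 0.38 and 0.23 to 0.33, and the median of all 25 synthesis enzymes from 0.17 to 0.26 and 0.22 to 0.26. With the mean of all probe sets per gene the sterol enzyme medians were 0.20 and 0.26, those of all 25 synthesis enzymes 0.12 and 0.18, and the efflux medians -0.17 and -0.34. The other settings moved none of the 4 counts of members by over 1.5 times. No called gene changed direction under any setting run. With the replicate number as a block (replicate block), 3, 9, 0 and 18 members were called. Same-numbered air and SHS arrays deviated together at correlations of -0.08 to 0.267 in females and 0.02 to 0.115 in males. Across the sexes it was 0.017 to 0.12 for air arrays and 0.032 to 0.058 for SHS arrays 1 to 3, but 0.379 for the SHS arrays numbered 4. The arrays were not treated as paired, since not every pair was above 0.1, and what links the SHS arrays numbered 4 was not tested. The cause of these shifts was not tested.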

Other observations

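The sterol enzymes also differed together between lungs of a group. Among air females, replicate 4 was the highest for 15 of 17 sterol enzymes and replicate 2 the lowest for 11. In air males replicate 2 was the highest for 13 and replicate 3 the lowest for 9. SHS male replicate 3 was the highest for 14 of its group and replicate 4 the lowest for 13, and SHS female replicate 4 was the lowest for 10 of 17. In the 8 fatty acid enzymes, air female replicates 1 and 4 were each the highest for 3.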
